A study of Mus musculus with 64 samples.

Results

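Clones E and T are a pair of cell lines subcloned from the same polyclonal mouse pancreatic tumor line, and they were compared here in 8 mono-culture libraries, 4 of each clone, out of 64 libraries in the series. The tumor arose in a KPC mouse, a model driven by Pdx1-Cre, which is active in the pancreatic epithelium, and both clones carry its mutant Trp53 R172H allele on a mixed C57BL/6 background. Clone E belongs to metabolic group 1 of the study with clones H and V, and clone T to group 2 with K, M and N. An eighth line, KPC1, was placed in neither group. The pair was chosen by measured values: among the pairs that join a clone of group 1 to a clone of group 2, the log2 CPM (read counts scaled to a common library size) of E and T in mono-culture had the highest Pearson correlation. What differs between their mono-cultures is therefore given as a description, without tests. Another 8 libraries, 4 of each clone, came from tumor cells sorted by their GFP label after 48 h of coculture with fibroblasts. The choice of the pair did not use these, and tests were run in them alone. Each clone is 1 line. Its libraries are repeats of that line, the labels do not say whether they came from separate cultures, and p-values measure the spread between libraries of this pair of clones, not between the metabolic groups.

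Pancreatic ductal adenocarcinoma (PDA) cells grow in a fibrotic tissue that is poor in oxygen and nutrients. Amino acid shortage or endoplasmic reticulum stress leads kinases to phosphorylate the translation factor eIF2alpha, and translation of the transcription factor ATF4 then rises. This integrated stress response (ISR) switches on genes for amino acid synthesis and transport, among them the asparagine synthetase gene Asns. The study assigned its groups from metabolite pools and asked how the ISR differs between them, and the E and T libraries place that question in the pair of clones that are most alike across the groups.

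The 16 libraries of E and T held between 13063681 and 21333683 counted reads. Of 11 ductal epithelial and tumor cell markers, 8 were at 1 CPM or more in E mono-cultures and 9 in T mono-cultures, and their summed level was 3174 to 3532 CPM in E and 3155 to 4683 CPM in T. Epcam, a defining epithelial marker, had 0 counts in the E libraries. At most 3 acinar, 2 endothelial and 1 immune marker reached 1 CPM in any of the groups, and no endocrine marker did. In mono-culture the fibroblast markers Postn, Lum and Thy1 were at 0 in both clones, while 6 of the 20 markers reached 1 CPM in E and 7 in T, and the 20 summed to 136 to 169 CPM in E and 105 to 141 CPM in T. In coculture none of the 20 was at 0, and the sums were 421 to 1020 CPM in E and 727 to 1389 CPM in T. A level in a sorted sample can come from fewer cells of a type or from less RNA per cell, and these cannot be told apart. The 4 E libraries of each culture carry sample numbers from the first of 2 runs of numbers in the labels, while T had 2 libraries from each run per culture. Results that change within the first run are given with that value.

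With counts summed over the 4 libraries of each clone, E and T had a correlation of 0.961 across 14829 genes. Between their libraries 1148 of 13624 genes differed at least 2-fold with no overlap, the fewest of all pairs of the 7 clones. The next pair across the groups was E with N, at 0.942 and 1724 genes. Clones N and T within group 2 differed in 1216 genes and clones H and V within group 1 in 1426. With its own group partners, clone E differed in 2674 genes against H and 2854 genes against V. By both measures clone E lay nearer to T than to H or V.

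In the fit of E and T alone, 12374 genes passed the filter on low counts. Of these, 390 (3.15%) were at least 2-fold higher in E and 601 (4.86%) at least 2-fold lower, each without overlap of the 4 and 4 libraries. Together they made up 8.01% of genes. Some of these genes were read in the libraries of 1 clone and were at or near 0 in the other. In 49 genes on 18 chromosomes, 1 clone had at most 3 counts over its 4 libraries while the other averaged at least 1 CPM. E was the higher clone in 16 of them and T in 33, and in 23 the lower clone had 0 counts. Folds against 0 counts are lower bounds, set against 3 counts over the 4 libraries, and these bounds and the intervals of ratios cover counting error only.

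Promoters of 3 of the genes with the largest differences are shown, because each gene had 0 counts in 1 clone and a start site in the RefSeq table used here. Arhgap32 meets this as well and is not shown. It has 3 listed starts, whose windows held as few as 2 and as many as 38 CG. Each run covers 250 bases before to 50 bases after the start, in the GRCm38.p6 build, 5′ to 3′ on the gene's strand, with CG dinucleotides, the sites of DNA methylation, in capitals. Cxcl12 lies at chr6:117168285-117168584 on the plus strand, Cpeb1 at chr7:81454709-81455008 on the minus strand, and Zfp37 at chr4:62208497-62208796 on the minus strand.
Cxcl12: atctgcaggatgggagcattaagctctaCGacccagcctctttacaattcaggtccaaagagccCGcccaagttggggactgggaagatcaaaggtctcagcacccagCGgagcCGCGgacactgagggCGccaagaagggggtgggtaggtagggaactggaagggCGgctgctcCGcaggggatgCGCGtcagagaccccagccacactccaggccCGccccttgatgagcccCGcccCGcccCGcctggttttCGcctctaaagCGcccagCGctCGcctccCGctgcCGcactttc
Cpeb1: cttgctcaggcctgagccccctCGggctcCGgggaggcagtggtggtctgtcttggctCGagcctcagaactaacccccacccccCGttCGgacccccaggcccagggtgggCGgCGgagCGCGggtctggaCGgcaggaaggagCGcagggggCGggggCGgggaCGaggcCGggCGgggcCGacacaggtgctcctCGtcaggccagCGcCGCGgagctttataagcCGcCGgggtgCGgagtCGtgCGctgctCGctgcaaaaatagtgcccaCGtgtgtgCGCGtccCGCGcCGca
Zfp37: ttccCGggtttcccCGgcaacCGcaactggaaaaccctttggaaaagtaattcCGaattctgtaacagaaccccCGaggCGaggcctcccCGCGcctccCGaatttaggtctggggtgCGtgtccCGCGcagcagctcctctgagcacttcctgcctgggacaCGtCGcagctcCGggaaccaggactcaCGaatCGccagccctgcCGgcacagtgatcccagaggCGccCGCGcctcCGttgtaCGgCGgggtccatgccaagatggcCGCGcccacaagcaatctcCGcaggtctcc
The Cxcl12 window held 20 CG, a number that 26.5% of 32851 RefSeq promoters reach or pass. The Cpeb1 window held 33, reached by 8.56%, and the Zfp37 window 27, reached by 15.5%. Zfp37 has 2 listed starts and the one with more CG is printed. Of the 49 genes, 34 matched a promoter, with a median of 18.5 CG against 23 in 8820 measured genes, and 24 of the 34 (70.6%) held at least 10 CG against 88.5%. Methylation was not measured in these libraries.

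Cxcl12, which encodes the chemokine ligand of the receptor CXCR4, showed the widest gap. It had 0 counts in the 4 E mono-cultures and 61.4, 84.3, 56.3 and 130 CPM in the 4 T mono-cultures, at least 1935-fold higher in T. The gene lies on chromosome 6 from 117168535 to 117181367 (GENCODE M21, GRCm38). In coculture E held 6.30, 4.72, 9.72 and 15.6 CPM against 65.7, 53.1, 58.8 and 107 CPM in T, so the clones still did not overlap. The log2 fold change was -2.97 (SE 0.33, edgeR adjusted p = 5.88e-05). Across the other clones Cxcl12 did not follow the groups, with a mean of 0.0930 CPM in N and 0.365 CPM in H but 101 CPM in V and 876 CPM in K.

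Other genes high in T encoded matrix, surface and junction proteins. Fbln5, an elastic fiber protein, was at 0.0464, 0.0753, 0.0541 and 0.0624 CPM in E and at 53.3, 79.2, 63.3 and 108 CPM in T. Its difference in coculture was -2.07 (SE 0.26, adjusted p = 0.000162). Cd34, a surface sialomucin of progenitor and endothelial cells, was at 0.139, 0.452, 0 and 0 CPM in E and 66.3, 57.2, 73.8 and 51.4 CPM in T. The gap remained in coculture, with 0.919 to 3.75 CPM in E and 51.1 to 91.1 CPM in T (log2 fold change -4.93, SE 0.34, adjusted p = 1.14e-06). Dsc2, a desmosomal cadherin, was at 0.139, 0, 0.0541 and 0.187 CPM in E mono-cultures and 21.1, 23.1, 20.9 and 29.6 CPM in T. In coculture Dsc2 had 0 counts in the 4 E libraries and 10.8 to 12.7 CPM in T. It passed the filter on low counts through T alone, so its call there is no support for the difference. Thbs2, the matrix protein thrombospondin 2, ranged from 0.271 to 0.499 CPM in E and from 28.9 to 57.6 CPM in T. In coculture it ranged from 6.55 to 24.2 against 56.3 to 108 CPM (-2.52, SE 0.36, adjusted p = 0.000387). Fibroblast markers summed to 421 to 1020 CPM in E cocultures and 727 to 1389 CPM in T cocultures. The part of fibroblast RNA in the coculture values of these genes was not tested.

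Transcription regulators and signaling genes were also among the 12 lowest in E. Zfp503, a zinc finger repressor, had 3 counts in E, all in replicate 1, and 32.2 to 52.9 CPM in T, a ratio of 964 (95% counting interval 330 to 4672) in favor of T. Zfp37, another zinc finger gene, had 0 counts in E and 6.08, 6.12, 5.86 and 5.74 CPM in T, at least 138-fold higher in T. In coculture Zfp37 ranged from 0 to 0.659 CPM in E and from 6.06 to 10.3 CPM in T (-5.04, SE 0.51, adjusted p = 2.85e-05). Both zinc finger genes thus kept their direction, and Zfp503 was called in coculture (-1.80, SE 0.43, adjusted p = 0.00909) but not within the first run of sample numbers (-0.95, adjusted p = 0.108). Rnf130, Pag1, Tc2n, Armcx2 and Adamtsl3 completed the set. Each was at 0.23 CPM or less in every E mono-culture and at 4.62 CPM or more in every T mono-culture, and each was called lower in E in coculture. Pag1 encodes a membrane adaptor that binds the kinase Csk, and Rnf130 a RING finger protein.

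Among the 12 genes with the largest fold change in favor of E, Eif4g3 had the highest level. It encodes a scaffold of the cap-binding complex that starts translation and lies on chromosome 4 from 137993022 to 138208508. E mono-cultures held 68.2, 64.1, 93.3 and 78.7 CPM and T mono-cultures 0.118, 0.0542, 0 and 0 CPM, which is 3 counts over the 4 T libraries. The ratio was 1726 (95% counting interval 591 to 8370). In coculture E held 37.4, 38.1, 43.6 and 31 CPM and T 3.43, 3.39, 4.03 and 4.13 CPM, with a log2 fold change of 3.32 (SE 0.16, adjusted p = 2.50e-07). Eif4g3 was at 11.4 CPM in H and 10.9 CPM in K but at 0.0323 CPM in V, so it too did not follow the groups.

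Dclk1, a microtubule-linked kinase known as a tuft cell marker, was at 66.2, 64.9, 57.6 and 71.8 CPM in E and 0.472, 0.217, 0.391 and 0.355 CPM in T. In coculture its range was 20.4 to 39.4 CPM in E and 0.462 to 1.33 CPM in T (4.99, SE 0.31, adjusted p = 7.62e-07). Ripk3, the kinase that starts necroptosis, was at 9.64 to 10.8 CPM in E and 0.0591 to 0.326 CPM in T, and was called higher in E in coculture (3.64, SE 0.29, adjusted p = 3.30e-06). For both kinases the E libraries lay above the T libraries in each culture. Arhgap32, a GTPase-activating protein, had 0 counts in T and 14.2, 8.58, 15.7 and 12.3 CPM in E, at least 296-fold higher in E. Its coculture level was 10.6 to 20.9 CPM in E and 2.06 to 4.87 CPM in T (1.91, SE 0.29, adjusted p = 0.000548). Cpeb1, which binds polyadenylation elements in mRNA, had 0 counts in T and 6.03, 7.08, 6.50 and 7.42 CPM in E, at least 151-fold higher in E. In coculture it was at 2.63 to 4.30 CPM in E and 0.0738 to 0.266 CPM in T (4.29, SE 0.40, adjusted p = 1.60e-05).

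The polarity gene Pard6g and the genes Rbpms and Tmem121 passed the coculture test in the same direction, with log2 fold changes of 3.27, 1.62 and 3.56. Il7, a cytokine that sustains lymphocytes, was at 4.93 to 9.42 CPM in E mono-cultures and had 1 count in T. Its coculture range was 0.764 to 3.59 CPM in E and 0 to 0.0738 CPM in T (adjusted p = 0.000299). Colec12, a scavenger receptor, was the gene of these 24 that did not pass in coculture. It went from 12.8 to 18 CPM in E and 3 counts in T in mono-culture to overlapping ranges of 13.1 to 24.7 CPM and 8.25 to 24.9 CPM (0.25, SE 0.29, adjusted p = 0.549), and within the first run of sample numbers the value was 0.78 (adjusted p = 0.0602). Rnf150 and Fam110b passed narrowly (1.13, adjusted p = 0.0524, and 0.85, adjusted p = 0.0910). Leaving out E coculture replicate 2 gave 0.62 and 0.55 with adjusted p of 0.198 and 0.277, leaving out T replicate 2 gave 0.96 and 0.77 with 0.110 and 0.160, and leaving out T replicate 3 gave 1.05 and 0.68 with 0.125 and 0.222. Fam110b also missed the threshold without E replicate 1, E replicate 4 or T replicate 4 (0.94, 0.94 and 0.79, adjusted p = 0.117, 0.101 and 0.169).

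**Figure D1:**
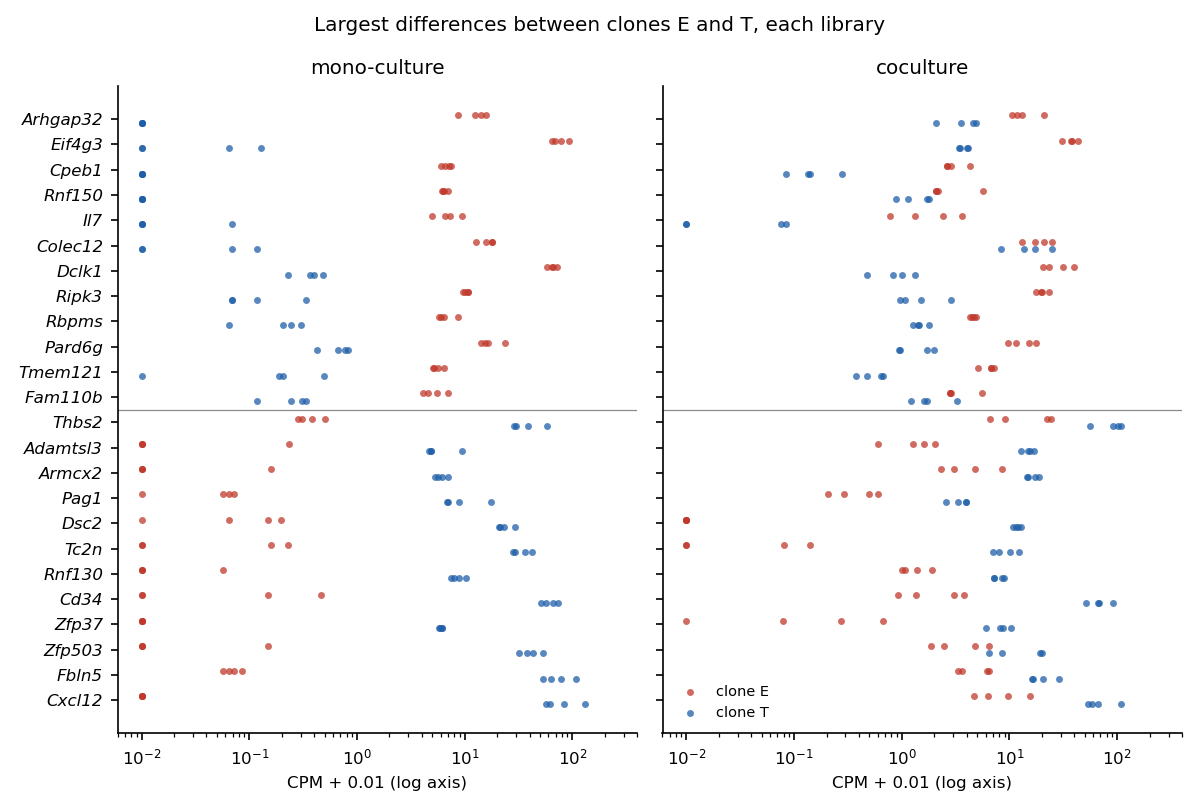
CPM plus 0.01 on a log axis for the 12 genes highest in E (above the line) and the 12 lowest in E (below it), 1 point for each library, in mono-culture (left) and coculture (right). Points at the left edge are libraries with 0 counts. The clones are apart for all 24 genes in mono-culture, while in coculture the points of Colec12 overlap.

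Of the 49 genes read in nearly 1 clone only, 34 passed the filter on low counts in coculture. A gene can pass through the clone in which it is high, so the number of these called in the same direction is no support for their differences. Those not called were Colec12 and the interferon-stimulated gene Ifi27 (-0.63, adjusted p = 0.155), and Ifi27 passed when E replicate 4 was left out (-0.96, adjusted p = 0.0394). In 32 of the 49, the clone that was nearly silent in mono-culture had more than 3 counts over its 4 coculture libraries. The part of fibroblast RNA in those reads was not tested, and the fibroblast marker sums given above rose from mono-culture to coculture in both clones. Mgmt, the DNA repair gene that removes alkyl groups from guanine, is one of these 49 and was picked out after its values were seen. It had 0 counts in T and 4.64, 5.57, 4.28 and 4.49 CPM in E, at least 106-fold higher in E, and in coculture 5.14 to 7.32 CPM in E and 0.133 to 0.443 CPM in T (4.65, SE 0.34, adjusted p = 1.94e-06). Of 98 measured genes next to the 49 on their chromosomes, 14 (14.3%) differed in the same direction as the gene beside them, against 3.15% of all genes higher and 4.86% lower in E. Neighbors of this kind were Dact2 with Thbs2, Armcx2 with Armcx3, and Col4a6 with Col4a5.

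The coculture test asked which of the mono-culture differences were present in libraries that had no part in the choice of the pair. It called 1999 of 12321 genes (16.2%) higher in E and 2242 (18.2%) lower, at an adjusted p under 0.1. With a 2-fold change required as well, 358 (2.91%) were higher and 559 (4.54%) lower, together 7.44%. Beside the 16.2% of all genes called higher and the 18.2% called lower stand the 991 genes that differed in mono-culture. Of these, 619 (62.5%) were called in the same direction in coculture, where 830 of the 991 passed the filter on low counts. For tested genes higher in E this was 219 of 330 (66.4%), and the medians of the log2 fold change were 1.49 in mono-culture and 0.89 in coculture. For tested genes lower in E it was 400 of 500 (80.0%), with medians of -1.79 and -1.29. Genes read in nearly 1 clone only are counted in these numbers. Of those 49, 32 were called in the same direction, which is no support for their differences. Other genes near 0 in 1 clone in mono-culture, such as Cd34 and Dsc2, are counted as well. Such a gene can pass the filter through the clone in which it is high, so the shares above are a description only. With both the values and the test changed, to limma on log2 RPKM (read counts scaled for transcript length and library size) with a pseudocount of 1, the split of calls was 2421 genes higher and 1517 lower in E, 61.5% higher against 47.1% with edgeR on the counts. Without E coculture replicate 1 the number called higher was 1293.

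Among the mono-culture differences, 5 genes were called in the opposite direction in coculture: Atf3, Col1a1, Ddr2, Gata3 and Tgfb2. Each was at least 2-fold higher in E in mono-culture and called lower in E in coculture. On log2 RPKM with a pseudocount of 1, the mono-culture values of Atf3, Col1a1, Ddr2, Gata3 and Tgfb2 were 0.97, 0.43, 0.29, 0.77 and 1.14. That of Ddr2 was 1.53 with a pseudocount of 0.1. The mono-culture value of Atf3 was 1.32 and fell to 0.66, under 2-fold, without E replicate 4. That of Col1a1 was 1.01 and lay between 0.80 and 0.99 without E replicate 2, E replicate 3, T replicate 1 or T replicate 3. Within the first run of sample numbers the mono-culture values of Col1a1 and Tgfb2 were 0.62 and 0.86. Tgfb2, a TGF-beta ligand, was at 39.1, 46.3, 40.7 and 52.6 CPM in E and 11.6, 21.9, 11.9 and 27.1 CPM in T mono-cultures. In coculture it was at 14.6, 21.5, 13.5 and 10.5 CPM in E and 21.4, 35.7, 29.5 and 46.3 CPM in T (-1.14, SE 0.25, adjusted p = 0.00560). The E libraries lay above the T libraries in mono-culture, and in coculture E replicate 2 alone reached the lowest T library. The collagen receptor Ddr2 (-0.80, adjusted p = 0.0334) and the collagen gene Col1a1 (-0.75, adjusted p = 0.0509) moved with the fibroblast markers, of which Col1a1 is itself a member, and their part in these values was not tested. Ddr2 did not pass within the first run of sample numbers (-0.50, adjusted p = 0.215). Col1a1 missed the threshold there (-0.40, adjusted p = 0.334) and without E replicate 1, E replicate 2, T replicate 1 or T replicate 4 (-0.55 to -0.68, adjusted p = 0.111 to 0.126). The values of Atf3 (-0.47, adjusted p = 0.0683) and Gata3 (-0.73, adjusted p = 0.0807) missed it when any 1 of the E libraries, T replicate 2 or T replicate 3 was left out (adjusted p = 0.101 to 0.193 for Atf3 and 0.116 to 0.263 for Gata3). In the edgeR fit of all 32 coculture libraries, Ddr2, Col1a1, Atf3 and Gata3 missed the threshold (adjusted p = 0.142, 0.247, 0.401 and 0.121). The difference of the clone contrast between the cultures was not tested.

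Atf4, the transcription factor of the ISR, was at 571, 560, 533 and 485 CPM in E mono-cultures and 606, 485, 626 and 319 CPM in T mono-cultures. Asns stood at 196, 143, 179 and 103 CPM in E and 189, 173, 214 and 67.9 CPM in T. Psph, which completes serine synthesis, was at 59, 49.5, 52 and 31.6 CPM in E and 69.4, 63, 75.4 and 32.8 CPM in T. The clones overlapped for all 3, and for Shmt2, the mitochondrial serine to glycine enzyme, and replicate 4 was the lowest library of its clone for each of the 4 genes. Between libraries of the same replicate number Psph was lower in E each time, while Atf4 and Asns went both ways. In the mono-culture fit the log2 fold changes of E over T were 0.08 (SE 0.17) for Atf4, -0.05 (SE 0.29) for Asns, -0.32 (SE 0.24) for Psph and -0.13 (SE 0.24) for Shmt2.

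The coculture test did not call these genes either. Atf4 was at 800 to 990 CPM in E and 856 to 1134 CPM in T (-0.12, SE 0.13, adjusted p = 0.524). Asns was at 529, 382, 467 and 447 CPM in E and 416, 705, 568 and 401 CPM in T (-0.20, SE 0.18, adjusted p = 0.441), but within the first run of sample numbers it passed as lower in E (-0.48, adjusted p = 0.0544). Psph was at 148 to 217 CPM in E and 124 to 164 CPM in T (0.30, SE 0.14, adjusted p = 0.127) and passed as higher in E when E replicate 2, E replicate 3 or T replicate 2 was left out (0.38, 0.36 and 0.37, adjusted p = 0.0783, 0.0959 and 0.0844). Shmt2 gave 0.12 (SE 0.15, adjusted p = 0.579). A p above the threshold does not show that the clones are equal, and the standard errors, derived from the test statistic, give an approximate precision of each difference.

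Some members of the wider ATF4 and stress response list differed. Over all genes, 3.15% were higher and 4.86% lower in E in mono-culture, and 16.2% were called higher and 18.2% lower in coculture, and the counts of this and the other lists stand against those shares. Of 48 measured, 1 was higher and 2 lower in E in mono-culture, and 1 was called higher and 13 lower in coculture, with medians of -0.15 and -0.19 against 0.01 in all genes in each culture. Within the first run of sample numbers 24 were called lower. Gdf15, a secreted stress cytokine, was at 0.325, 0, 0.379 and 0.374 CPM in E mono-cultures and 2.13, 1.25, 1.69 and 1.06 CPM in T. In coculture its level was 1.44, 0.915, 1.60 and 1.98 CPM in E and 10.1, 24.3, 13.4 and 8.57 CPM in T (-3.24, SE 0.36, adjusted p = 5.40e-05). T libraries were above E libraries in each culture. The neutral amino acid transporter gene Slc1a4 was at 84.1 to 138 CPM in E and 167 to 288 CPM in T, and was called lower in E in coculture (-0.56, SE 0.13, adjusted p = 0.00961). Ddit3, the stress factor CHOP, was picked out after its values were seen and was also lower in E (-0.93, SE 0.28, adjusted p = 0.0295), with T libraries between 97.4 and 333 CPM. Pycr1, an enzyme of proline synthesis, was the member called higher in E (0.70, SE 0.14, adjusted p = 0.00414).

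**Figure D2:**
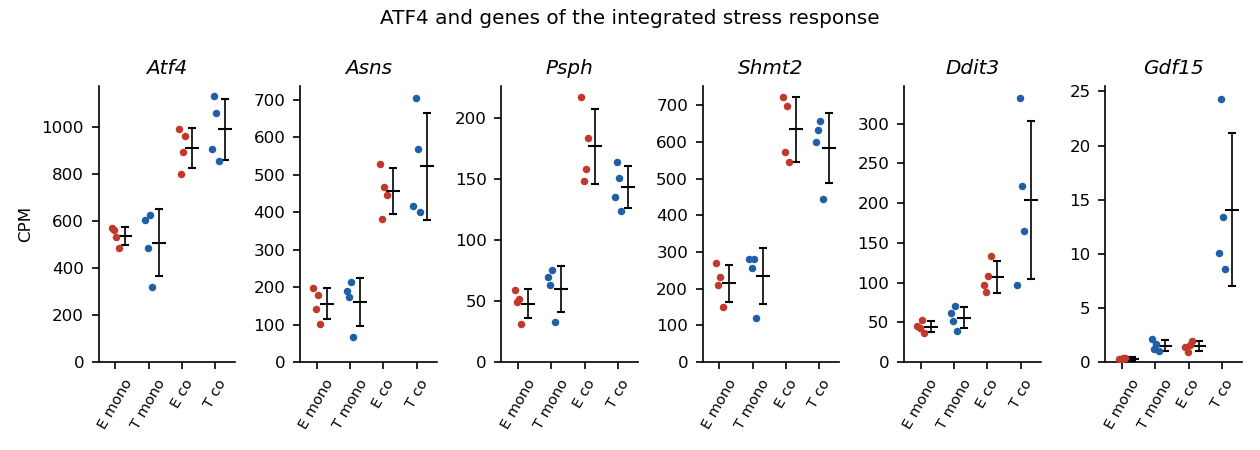
CPM of 6 ISR genes in each library of E (red) and T (blue), in mono-culture and coculture, with the mean and SD of 4 libraries beside the points. Atf4, Asns, Psph and Shmt2 overlap between the clones, and Gdf15 is higher in T in both cultures.

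Of the eIF2alpha kinases and their partners, 9 were measured. The mRNA of Eif2ak4, which encodes the amino acid sensor GCN2, was at 38.3, 38.6, 43.3 and 42.6 CPM in E and 53.7, 42, 36.5 and 48.2 CPM in T (-0.15, SE 0.12, mono-culture), and its coculture difference was -0.21 (adjusted p = 0.191). Impact, whose protein inhibits GCN2, was at 203, 170, 205 and 189 CPM in E and 86.6, 79.4, 95.1 and 93.2 CPM in T. It was the list member that differed in mono-culture (1.12, SE 0.09) and it was called higher in E in coculture (0.93, SE 0.14, adjusted p = 0.000507). Eif2ak3, the kinase PERK of the endoplasmic reticulum, was called lower in E in coculture (-0.65, SE 0.15, adjusted p = 0.00837), while Eif2ak1 and Eif2ak2 were not (0.08 and -0.05, adjusted p = 0.649 and 0.809). Values are transcript levels, and phosphorylation was not measured.

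The unfolded protein response list held endoplasmic reticulum chaperones and sensors. None of its 24 members differed 2-fold in mono-culture, but all 24 had a log2 fold change below 0, with 8 of them without overlap, and the median was -0.30. Of all 12374 genes in mono-culture, 6091 were below 0, and 2102 had every E library below every T library. In coculture 14 of 23 were called lower in E and 0 higher, with a median of -0.45. The sensor gene Atf6 was alike in mono-culture (-0.02, SE 0.10) and lower in E in coculture, at 230, 276, 333 and 223 CPM in E and 436, 516, 583 and 474 CPM in T (-0.92, SE 0.15, adjusted p = 0.000941). Ern1, the sensor IRE1alpha, was lower in E as well (-0.88, SE 0.21, adjusted p = 0.00840). The chaperone gene Hspa5, picked out after its values were seen, gave -0.85 (SE 0.25, adjusted p = 0.0242), with 986 to 1272 CPM in E and 1077 to 3098 CPM in T.

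The driver genes of the tumor and its growth signals were measured in the same way. Trp53 was at 265 to 282 CPM in E and 228 to 293 CPM in T mono-cultures, and its coculture difference was 0.06 (adjusted p = 0.718). Myc was at 238 to 307 CPM and 191 to 284 CPM, with a coculture difference of -0.10 (adjusted p = 0.656). Of 15 driver and tumor suppressor genes, 0 were higher and 1 lower in E in mono-culture, and 2 were called higher and 3 lower in coculture, near the 16.2% and 18.2% of all genes. Cdkn1a, the cell cycle inhibitor p21, was the member lower in both (-1.35, SE 0.21, and -1.61, SE 0.16, adjusted p = 2.50e-05).

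Output genes of the ERK pathway, a growth factor signaling cascade, were measured for 21 members. In mono-culture 0 were higher and 2 lower in E, and in coculture 0 were called higher and 8 lower, with medians of -0.36 and -0.35. Etv5, an ERK-induced transcription factor, was at 49.5, 35, 45.8 and 37 CPM in E and 119, 126, 122 and 85.3 CPM in T (-1.43, SE 0.14), and Spry1, a feedback inhibitor, was at 24.8 to 32.7 CPM and 53.8 to 66.9 CPM (-1.09, SE 0.10). Both were called lower in E in coculture (-0.91, SE 0.13, adjusted p = 0.000366, and -0.64, SE 0.14, adjusted p = 0.00678).

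Growth factors and their receptors were lower in E in 8 of 35 members and higher in 1 in mono-culture, and in coculture 23 of 37 were called lower and 0 higher. The median was -0.42 in mono-culture and -0.74 in coculture. Their median transcript was 4265 bases. With transcript length as an offset 1 was called higher and 21 lower in coculture, with a median of -0.56. Fgf7, a growth factor for epithelium, was at 2.97, 2.26, 3.14 and 2.87 CPM in E and 30.9, 24, 29.2 and 15.4 CPM in T, and was lower in E in coculture (-2.36, SE 0.25, adjusted p = 3.90e-05). Igfbp7 was at 16.1 to 30.8 CPM and 78.0 to 136 CPM, with -2.40 in coculture (SE 0.24, adjusted p = 2.85e-05). In these genes too the T libraries lay above the E libraries. The PDGF receptor gene Pdgfra, also on the fibroblast marker list, was at 0.186 to 0.811 CPM in E and 7.68 to 9.18 CPM in T mono-cultures, and the part of fibroblast RNA in these values was not tested. Its coculture difference was -1.27 (SE 0.32, adjusted p = 0.0132).

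The TGF-beta, BMP and Wnt list had 4 of 46 members higher and 10 lower in E in mono-culture, and 2 of 45 called higher and 19 lower in coculture. Sfrp1, a secreted Wnt inhibitor, was at 0.436 to 0.920 CPM in E and 16.2 to 42.5 CPM in T. The Wnt receptor gene Fzd6 was at 0 to 0.217 CPM and 1.56 to 2.49 CPM, and the ligand gene Wnt7a at 0.376 to 1.25 CPM and 3.43 to 6.98 CPM. A ligand, a receptor and an inhibitor of the pathway were thus lower in the same clone. All 3 were called lower in E in coculture (-3.12, -3.78 and -3.59, SE 0.46, 0.47 and 0.43, adjusted p = 0.000507, 0.000159 and 9.95e-05). The part of fibroblast RNA in these coculture values was not tested either.

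Extracellular matrix genes differed in both directions in mono-culture, with 5 of 35 higher and 9 lower in E, and mostly in one direction in coculture, with 3 of 45 called higher and 29 lower. The median was -0.52 in mono-culture and -0.96 in coculture. The median transcript was 5629 bases, and with transcript length as an offset 3 were called higher and 27 lower in coculture, with a median of -0.75. Col8a1 was at 2.69, 2.79, 1.79 and 2.31 CPM in E and 9.63, 15.3, 7.43 and 32.3 CPM in T mono-cultures, and the basement membrane genes Lamb3 and Col4a6 were lower in E in each culture. In coculture their differences were -1.93 (SE 0.15, adjusted p = 3.30e-06), -3.73 (SE 0.49, adjusted p = 0.000212) and -1.93 (SE 0.29, adjusted p = 0.000553). Fbln1, a fibulin of matrix and blood, went the other way, at 36.5 to 58.1 CPM in E and 12.4 to 18.9 CPM in T (1.72, SE 0.16), and was called higher in E in coculture (1.37, SE 0.33, adjusted p = 0.0105). Fn1, fibronectin, picked out after its values were seen, was at 1194, 1059, 1374 and 846 CPM in E and 5362, 5383, 5658 and 5856 CPM in T mono-cultures, and the coculture difference was -2.12 (SE 0.23, adjusted p = 5.40e-05). Of 15 fibroblast markers tested in coculture, 1 was called higher and 7 lower in E, with a median of -0.67. Their part in the matrix values was not tested. In mono-culture, where the marker sums given above were 136 to 169 CPM in E and 105 to 141 CPM in T, Fn1 differed by -2.32 (SE 0.14).

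Adhesion genes had 0 of 31 members higher and 7 lower in E in mono-culture, and 1 of 34 called higher and 19 lower in coculture. Their median transcript was 4325 bases, and with transcript length as an offset 2 were called higher and 17 lower. The integrin gene Itgb4, whose protein anchors epithelium to laminin, was at 65.0, 56.2, 57.9 and 61.4 CPM in E and 308, 281, 323 and 329 CPM in T (-2.37, SE 0.09), and was lower in E in coculture (-1.47, SE 0.24, adjusted p = 0.000947). The receptor gene Ephb2 was at 0.603 to 0.998 CPM and 10.3 to 12.4 CPM and kept its difference (-3.58, SE 0.31, adjusted p = 7.06e-06). Mesenchymal genes were higher in E in 1 of 29 and lower in 8, and in coculture 0 of 34 were called higher and 19 lower. The part of fibroblast RNA in these coculture values was not tested. The matrix protein gene Tgfbi was at 0.271 to 0.561 CPM in E and 12.2 to 14.7 CPM in T, and the surface protease gene Mmp14 at 5.43 to 6.62 CPM and 37.7 to 43.7 CPM. Both were called lower in E in coculture (-2.73, SE 0.42, adjusted p = 0.000653, and -1.73, SE 0.25, adjusted p = 0.000476).

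Epithelial genes differed in both directions. Cdh1, which encodes E-cadherin, was at 137, 145, 157 and 127 CPM in E and 38, 44.5, 36.9 and 33.1 CPM in T mono-cultures (1.89, SE 0.11). In coculture it was at 137, 180, 190 and 115 CPM in E and 29.8, 21.7, 24.3 and 24.7 CPM in T (2.63, SE 0.17, adjusted p = 9.21e-07). Cdh1 transcripts were thus higher in E while those of the desmosomal cadherin gene Dsc2 and the epithelial transcription factor genes Ehf and Elf3 were lower. Ehf was at 0.928 to 2.06 CPM in E and 7.95 to 10.3 CPM in T, and Elf3 at 2.60 to 3.43 CPM and 9.71 to 12.2 CPM. In coculture their differences were -5.47 (SE 0.41, adjusted p = 2.54e-06) and -1.84 (SE 0.30, adjusted p = 0.000945). In the whole list 1 of 18 was higher and 5 lower in E in mono-culture, and 6 of 17 were called higher and 3 lower in coculture.

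Among pancreatic lineage transcription factors, 1 of 15 was higher and 4 lower in E in mono-culture, and 0 of 14 were called higher and 6 lower in coculture. Hnf4a was at 15, 10.2, 19.3 and 12.6 CPM in E and 99.3, 72.3, 103 and 48.7 CPM in T mono-cultures (-2.49, SE 0.24). In coculture its levels overlapped, at 2.23 to 4.58 CPM in E and 1.46 to 10.1 CPM in T (-0.87, SE 0.45, adjusted p = 0.178), and it passed as lower in E without T replicate 2 (-1.19, adjusted p = 0.0183). Onecut3 was lower in E in each culture, with -1.66 in coculture (SE 0.31, adjusted p = 0.00250). Sox9, a ductal factor, was at 81.8 to 90.0 CPM in E and 156 to 256 CPM in T, and at 116 to 159 and 252 to 399 CPM in coculture (-1.32, SE 0.16, adjusted p = 9.30e-05). Gata6, a factor of the classical subtype of PDA, was at 1.66 to 2.37 CPM in E and 0 to 0.261 CPM in T, with no call in coculture (0.19, SE 0.33, adjusted p = 0.707). Of the Hox genes, Hoxa3 was the 1 measured in mono-culture and was higher in E (2.08), while in coculture 0 of 5 were called higher and 1 lower, and Hoxa3 was not called (-0.04, adjusted p = 0.960).

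In mono-culture 3 of 23 chemokine and cytokine genes were higher and 6 lower in E, and in coculture 5 of 24 were called in each direction, near the 16.2% and 18.2% of all genes. The monocyte attractant genes Ccl2 and Ccl7 were high in E while Cxcl12 was high in T. Ccl7 was at 7.19, 8.58, 3.68 and 5.92 CPM in E and 0.768, 1.03, 0.391 and 1.3 CPM in T, and Ccl2, picked out after its values were seen, was at 149, 207, 117 and 163 CPM in E and 29.8, 40.5, 23 and 34.5 CPM in T. Their coculture differences were 1.68 (SE 0.27, adjusted p = 0.000926) and 1.40 (SE 0.23, adjusted p = 0.00101). Tnfsf11, which encodes the cytokine RANKL, was at 0.162 to 0.452 CPM in E and 1.18 to 2.93 CPM in T and was lower in E in coculture (-1.38, SE 0.30, adjusted p = 0.00580).

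Interferon-stimulated genes had 1 of 29 members higher and 5 lower in E in mono-culture, and 3 of 32 called higher and 6 lower in coculture, not above the 16.2% and near the 18.2% of all genes. Of 13 genes of MHC class I presentation, 1 was higher and 1 lower, and 3 of 14 were called higher and 4 lower in coculture, a count that became 1 and 5 with transcript length as an offset in the fit. Cd274, which encodes the T cell inhibitor PD-L1, was at 17.9, 27, 33.7 and 25.1 CPM in E and 10.9, 10.1, 8.34 and 12.1 CPM in T (1.32, SE 0.18). It was at 8.68 to 17.3 CPM and 4.28 to 7.16 CPM in coculture (1.00, SE 0.26, adjusted p = 0.0153). Gbp2, a guanylate-binding protein gene, was at 10.9 to 18 CPM in E and 3.52 to 8.81 CPM in T. It did not pass in coculture (1.07, SE 0.50, adjusted p = 0.128) but did without E replicate 3, T replicate 1 or T replicate 4 (1.35, 1.32 and 1.36, adjusted p = 0.0523, 0.0999 and 0.0939) and within the first run of sample numbers (2.07, adjusted p = 0.0253).

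Metabolic genes are the subject from which the groups take their name, and in mono-culture 8.01% of all genes differed in either direction. Of 28 glycolysis genes, 0 were higher and 2 lower in E, and in coculture 0 of 29 were called higher and 5 lower. The phosphofructokinase gene Pfkp was at 10.3, 8.96, 9.26 and 12.2 CPM in E and 19, 19.5, 22.3 and 33.1 CPM in T, and Pdk4, which restrains pyruvate dehydrogenase, at 3.57 to 4.24 CPM and 6.58 to 12.9 CPM. Both were called lower in E in coculture (-1.26, SE 0.24, adjusted p = 0.00256, and -0.90, SE 0.21, adjusted p = 0.00871). Of 42 genes of glutamine, aspartate and the TCA cycle, 0 were higher and 1 lower in E in mono-culture, and in coculture 9 of 43 were called higher and 6 lower. The 1 gene was Asrgl1, an enzyme that hydrolyzes asparagine, at 1.67, 1.05, 1.03 and 1.37 CPM in E and 16.2, 22.5, 21.6 and 27.8 CPM in T. In coculture Asrgl1 was at 1.46 to 2.85 CPM in E and 8.38 to 11.8 CPM in T (-2.08, SE 0.24, adjusted p = 7.13e-05).

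Nuclear genes of oxidative phosphorylation gave 0 of 68 differing in mono-culture, with a median of 0.04, and 42 of 68 called higher and 0 lower in E in coculture, with a median of 0.42. Uqcrc2, a subunit of complex III picked out after its values were seen, was at 104, 98.2, 70.6 and 93.2 CPM in E and 46.3, 46.3, 36.9 and 32.6 CPM in T cocultures (1.18, SE 0.15, adjusted p = 0.000211). Ndufc2, of complex I, gave 1.14 (SE 0.18, adjusted p = 0.000874). Transcript length moved with this result. These genes have a median transcript of 863 bases, and in coculture the shortest 25% of all genes stood at a median of 0.21 on the log2 scale, with 26.1% called higher and 5.59% lower in E, against -0.22, 8.16% and 34.8% in the longest 25%. The difference between the shortest and the longest 25% was 0.315, 0.313, -0.162 and 0.367 in the E cocultures and -0.257, -0.0577, -0.273 and -0.221 in the T cocultures. Ribosomal protein genes, with a median of 906 bases, had 37 of 73 called higher and 1 lower. With transcript length entered as an offset in the fit, a setting chosen after the data were seen, 25 of the 68 oxidative phosphorylation genes were called higher and 4 lower in E, with a median of 0.17. The 10 measured genes of the mitochondrial genome had a median of 0.27 in mono-culture, with 10 above 0, as were 6283 of all 12374 genes, and no member counted as differing. Their median was 0.14 in coculture, where each missed the threshold (adjusted p = 0.244 for mt-Co1 to 0.996 for mt-Nd2, edgeR).

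Cell cycle and DNA replication genes had a median of 0.43 in mono-culture, with 41 of 46 above 0, 2 higher and 0 lower in E, and in coculture 12 were called higher and 2 lower, with a median of 0.20. Of all 12374 genes, 6283 were above 0 in mono-culture. Rrm1 and Rrm2, the subunits of ribonucleotide reductase, were the members that differed. Rrm2 was at 116, 98.5, 71.1 and 91.4 CPM in E and 51.9, 47.4, 37.3 and 45.3 CPM in T, and Rrm1 at 116 to 149 CPM and 57.8 to 71.5 CPM. Both were called higher in E in coculture (0.64, SE 0.17, adjusted p = 0.0151, and 0.57, SE 0.13, adjusted p = 0.00632). Ribonucleotide reductase is a target of gemcitabine, and among 20 entries of genes that handle this drug and nucleosides, in which Uck2 stands under 2 identifiers, 0 were higher and 2 lower in E in mono-culture, and 3 were called higher and 7 lower in coculture.

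Sterol and fatty acid synthesis genes had 1 of 33 higher and 0 lower in E in mono-culture, and 4 called higher and 5 lower in coculture. The member was the elongase gene Elovl5, at 1047 to 1147 CPM in E and 397 to 736 CPM in T, and its call in coculture (0.61, SE 0.23, adjusted p = 0.0663) was lost without E replicate 1 or 2 or T replicate 1, 2 or 3 (0.35 to 0.63, adjusted p = 0.112 to 0.207). Of 20 hypoxia genes, 1 was higher and 1 lower in E in mono-culture, and 1 was called higher and 6 lower in coculture. Car12, a carbonic anhydrase gene, was the lower member in both (-2.20, SE 0.24, and -1.34, SE 0.23, adjusted p = 0.00156), and Selenbp1 the higher (1.61, SE 0.19, and 3.24, SE 0.56, adjusted p = 0.00141). Of 44 Nrf2 and glutathione genes 5 were higher and 5 lower in E in mono-culture, and in coculture 12 of 41 were called higher and 6 lower. Their median transcript was 1358 bases, and with transcript length as an offset 9 were called higher and 7 lower. Aldh1a3, a retinal dehydrogenase gene, was at 3.37 to 6.55 CPM in E and 17.2 to 19.4 CPM in T (-1.83, SE 0.19), and was lower in E in coculture (-1.92, SE 0.37, adjusted p = 0.00286).

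Imprinted genes, which are read from 1 parental copy, had 2 of 11 members higher and 3 lower in E in mono-culture, and 2 of 12 called higher and 4 lower in coculture. Snrpn, a splicing factor gene on chromosome 7, was at 1.90, 3.24, 2.27 and 2.37 CPM in E and had 0 counts in T, at least 53.3-fold higher in E. It was at 3.44 to 4.23 CPM and 0.0630 to 0.222 CPM in coculture (4.88, SE 0.38, adjusted p = 3.24e-06). Sgce and Peg10, which are neighbors on chromosome 6, were both lower in E in mono-culture (-1.93, SE 0.18, and -1.63, SE 0.24). Grb10, a growth factor receptor adaptor gene, was at 60.4 to 89.3 CPM in E and 147 to 282 CPM in T, and at 116 to 155 and 286 to 356 CPM in coculture (-1.34, SE 0.13, adjusted p = 1.96e-05).

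**Figure D3:**
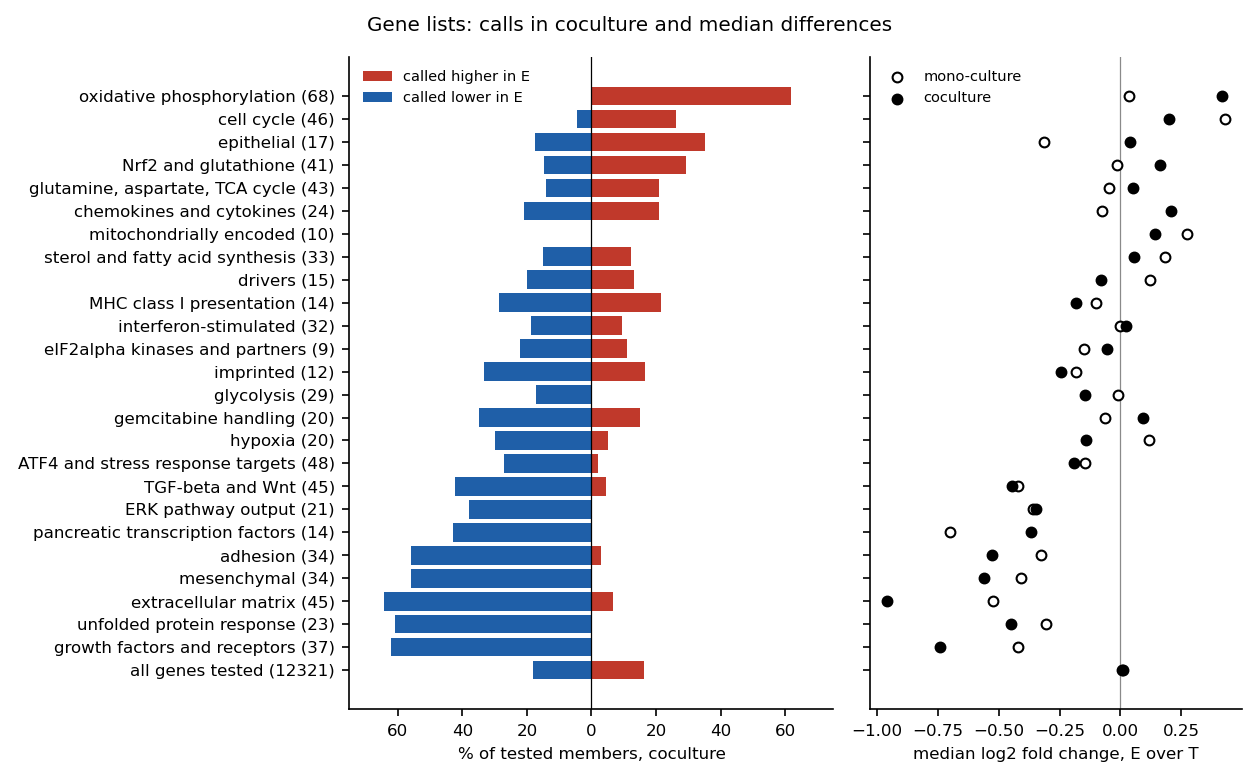
Left, percent of tested members of each gene list called higher (right of 0) or lower (left of 0) in E in coculture, with the number tested in parentheses. Right, median log2 fold change of E over T in mono-culture (open) and coculture (filled), where oxidative phosphorylation stands at 0.04 and 0.42 and extracellular matrix at -0.52 and -0.96.

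By position in the genome, the difference between the clones was largest on 4 of the 20 chromosomes. The mono-culture medians come from the values that chose the pair and are a description. The median log2 fold change of E over T in mono-culture was -0.34 over 702 genes of chromosome 1, -0.33 over 419 genes of chromosome 14 and -0.34 over 394 genes of chromosome 16. On chromosome 7 it was 0.24 over 901 genes. The other 16 chromosomes lay between -0.02 and 0.06. In coculture the medians were -0.34, -0.30, -0.26 and 0.26 on these 4 chromosomes and between -0.01 and 0.08 on the rest. The 4 E libraries did not overlap with the 4 T libraries on any of the 4 chromosomes in either culture. Without overlap, but with medians no larger than 0.08, E also lay above T on chromosomes 4 and 17 in both cultures, on 3, 5, 8 and 13 in mono-culture and on 2 and 11 in coculture.

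The shift ran along the whole of chromosomes 1, 14 and 16. In windows of 10 Mb with at least 10 genes, the median was below 0 in 19 of 19 windows of chromosome 1, 10 of 10 of chromosome 14 and 9 of 9 of chromosome 16. On chromosome 7 it was above 0 in most of the 15 windows, with 3 below 0 and the highest at 0.58. Of genes on chromosome 1, 81.9% were below 0. In coculture 325 (45.8%) of the chromosome 1 genes were called lower in E and 32 (4.51%) higher, while on chromosome 7 300 (33.7%) were called higher and 74 (8.31%) lower. The shares called lower were 42.8% on chromosome 14 and 38.9% on chromosome 16, against 18.2% of all genes. Against the mean of the 7 clones, the chromosome 1 median was -0.23 in E, -0.20 in V and -0.03 in H. It was 0.06 in M, 0.08 in T, 0.15 in K and 0.22 in N, so E, H and V all lay below K, M, N and T there. The groups did not separate on the other chromosomes named. On chromosome 14 K (-0.07) lay below H (-0.04), on 16 H (0.10) lay above T (0.08), and on 7 V (-0.02) lay below K (0.03). DNA copy number was not measured.

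**Figure D4:**
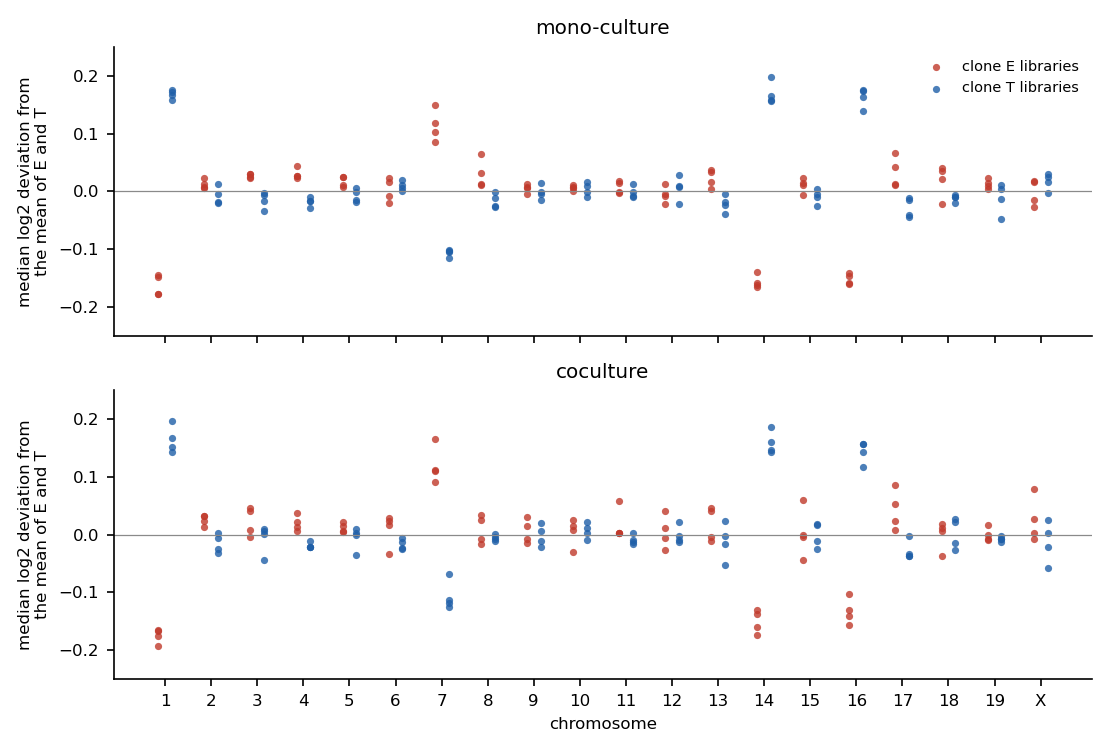
Median deviation of log2 expression from the mean of both clones over the genes of each chromosome (x axis), 1 point for each library of E (red) and T (blue), in mono-culture (top) and coculture (bottom). The clones lie farthest apart on chromosomes 1, 14 and 16, where E is lower, and on chromosome 7, where E is higher. On chromosomes 4 and 17 E lies above T in both cultures by a smaller distance.

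Most of the genes that differed between E and T did not separate the metabolic groups. Of the 390 genes higher in E, 24 (6.15%) also separated the mono-culture means of E, H and V from those of K, M, N and T, against 2.18% of 13624 genes that separated the groups in that direction. Of the 601 genes lower in E, 39 (6.49%) did, against 3.05%. A difference between E and T is part of that separation, so these shares stand beside the background only as a description. When E and T were set aside, the mean of H and V was on the side of E over the mean of K, M and N for 41.8% of the 390 genes and 46.9% of the 601, against 51% and 51.4% of all genes that lay on those sides. In the coculture libraries this was 37.5% of 365 of the genes higher in E, against 48.9%. For 564 of the genes lower in E it was 52.5% against 46.8%, the other way round from mono-culture. There 5.75% of the 365 and 10.1% of the 564 separated the groups, against 4.26% and 4.69% of all genes.

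Cd34 and Zfp503 were among the genes that did separate the groups. Cd34 had means of 0.148 CPM in E, 0.308 in H and 0.389 in V CPM, against 19.1 in clone K, 27 in clone M, 58.2 in clone N and 61.2 in clone T. Zfp503 had means of 0.0350, 0.0602 and 0.0849 CPM in E, H and V and between 7.96 and 97.8 CPM in the 4 clones of group 2. Pag1 was at 0.0406 to 0.316 CPM against 6.48 to 20.3 CPM, and Gstt1, a glutathione transferase gene, at 0.0315 to 0.0990 CPM against 0.152 to 2.90 CPM, with K nearest to group 1. In the other direction, Fbxo17, of a ubiquitin ligase complex, had means of 3.84, 4.78 and 7.48 CPM in E, H and V and 0.290 to 3 CPM in group 2. The zinc finger gene Zfp941 was at 4.71 to 6.32 CPM in group 1 and 0 to 4.21 CPM in group 2, where clone N was the nearest at 4.21, clone M was at 3.31, clone K at 1.40 and T at 0. In coculture E differed from T for Fbxo17 (4.16, SE 0.27, adjusted p = 9.21e-07) and for Gstt1 (-1.45, SE 0.43, adjusted p = 0.0260), while Mxra7, which also separated the mono-culture means, did not pass (-0.11, SE 0.27, adjusted p = 0.784) and changed sign without E replicate 1 (0.01) or T replicate 1 (0.06).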

How the data were processed

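RNA was sequenced from tumor cells of clones E and T grown alone or sorted by GFP after coculture. The authors deposited raw read counts per gene, which their processing notes tie to the mm10 build and to featureCounts and edgeR (versions not given in the sources used here), and RPKM values per gene, normalized by the authors for length and library size. Counts were the basis of the results and RPKM served as an alternative. Every count column was used (0 were left out).

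Genes were filtered with filterByExpr and scaled by TMM in edgeR 4.0.16 (R 4.3.3), and CPM values are TMM-scaled. In mono-culture, which had been used to choose the pair, a gene was described as differing at a log2 fold change of at least 1 with no overlap of libraries. In coculture, edgeR's quasi-likelihood test compared 4 with 4 libraries, with Benjamini-Hochberg adjusted p under 0.1. Standard errors (SE) were derived as the size of the log2 fold change divided by the square root of the quasi-likelihood F statistic, and are approximate at low counts. Fitted fold changes of genes with at most 3 counts in a clone are not printed. The code was tested on simulated data. Alternatives were RLE scaling, 2 other filters, DESeq2 1.42.0, limma 3.58.1 on log2 RPKM, other thresholds, leaving out each library, the replicate number as a block, all 32 coculture libraries in 1 fit and the first run of sample numbers alone. A transcript length offset was added after the data were seen.

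The clones and the gene lists were chosen with earlier results of these data known. Named genes were the 12 largest differences in each direction at 5 CPM or more, up to 4 differing genes of each list at 1 CPM or more, up to 6 genes in each direction that separated the groups, and Atf4, Asns, Psph, Shmt2, Myc, Trp53 and stress kinases and sensors, except 1 gene that is not reported here. Genes outside this rule were chosen after their values were seen: Uqcrc2, Ndufc2, Hspa5, Fn1, Ccl2, Tgfb2, Col1a1, Gata3, Ddit3, Mgmt, Pycr1, the marker genes and the neighbors of genes read in 1 clone. Positions are from GENCODE M21 (GRCm38) and promoters from RefSeq (GRCm38.p6). Library totals limit the precision of low counts.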

Additional observations from a re-analysis of the deposited data

Results flagged for a closer look

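Of 464 groups of 4 libraries examined among the named genes, 30 (6.47%) held a library whose gap to the nearest other, divided by the range of the group, was above Dixon's 95% critical value. Chance flags about 1 in 20 groups of normally spread values. That rate does not apply to Zfp503, Rnf130, Col4a6, Armcx2, Adamtsl3 and Gm14403 in E mono-cultures or to Il7 and Tspan6 in T mono-cultures, where the other 3 libraries were at 0. In E mono-cultures the high library was replicate 1 for Zfp503 (0.139 CPM), Rnf130 (0.0464), Col4a6 (0.0464), Gsta2 (2.74) and Wnt7a (1.25), replicate 2 for Armcx2 (0.151) and Adamtsl3 (0.226), replicate 3 for Alcam (35.7) and replicate 4 for Gm14403 (0.0624) and Atf3 (49.4). The low library was replicate 3 for Mxra7 (0.920) and Pdk4 (3.57) and replicate 2 for Gdf15 (0). In T mono-cultures the high library was replicate 1 for Il7 (0.0591) and Ern1 (129), replicate 2 for Tspan6 (0.0542) and replicate 4 for Adamtsl3 (9.52), Car12 (7.57) and Notum (15.4), and replicate 4 was low for Etv5 (85.3) and Shmt2 (121). In E cocultures replicate 2 was high for Cpeb1 (4.30), Rnf150 (5.70), Fam110b (5.49), Cd274 (17.3) and Selenbp1 (5.21), and replicate 1 for Car12 (2.50). In T cocultures replicate 1 was high for Tgfbi (7.19), replicate 4 was high for Fn1 (10436) and replicate 4 was low for Tnfsf11 (2.14).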

How the results depend on the processing

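The count of differing genes in mono-culture moved to 410 (168 higher, 242 lower) on log2 RPKM with a pseudocount of 1 but was 1097 with a pseudocount of 0.1, and moved to 402 (120 and 282) at a log2 fold change of 2. Coculture calls fell to 917 (358 and 559) when a 2-fold change was required as well. Leaving out 1 library gave 1293 to 2365 calls higher in E, with the lowest without E replicate 1 and the highest without E replicate 3. All calls ranged from 2878 to 4855 over the same fits. On RPKM 283 of the 410 mono-culture differences were found in coculture with a pseudocount of 1, and 600 of the 1097 with 0.1. The medians of chromosomes 14 and 16 were -0.30 and -0.26 in coculture against -0.33 and -0.34 in mono-culture. The ATF4 list had 24 members called lower within the first run of sample numbers, and oxidative phosphorylation 25 called higher with the length offset. Within the first run the coculture value changed sign for Mxra7 (0.22), Hnf4a (0.12), Hoxa3 (0.74), Col3a1 (0.19), Shmt2 (-0.029), Eif2ak1 (-0.0087) and Eif2ak2 (0.11), and with the length offset for Trp53 (-0.0586) and Eif2ak2 (0.0218). Leaving out 1 library gave -0.33 to 0.0567 for Mxra7, -0.34 to 0.55 for Hoxa3 and -0.15 to 0.0115 for Eif2ak2. Their causes were not tested.

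The same replicate numbers did not pair the libraries throughout. Same-numbered E and T libraries correlated at -0.02, 0.18, -0.04 and 0.41 in mono-culture, where the value of replicate 4 was the highest of all pairs. In coculture they correlated at -0.06, -0.21, 0.26 and 0.001. In neither culture did every library correlate best with its own number. The mono-culture fit did not use the replicate number. With the replicate block in the coculture fit, 3923 genes were called (1796 higher, 2127 lower) and 605 mono-culture differences were found. DESeq2 called 4457 genes, and a fit of all 32 coculture libraries 5117. Each clone is 1 line, E has no library of the second run of sample numbers, and low counts limit the genes near 0.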
